A study of Mus musculus with 18 samples.

Results

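Keratins and cornified envelope genes were examined in 3 glands of castrated (orchiectomised) male BALB/c mice that received placebo or testosterone. The 58 members were the probes, 1 per gene, whose gene symbol begins with Krt, Sprr, Lce or S100a or is Lor, Evpl, Ppl, Cnfn, Casp14, Sfn, Tgm1, Tgm2 or Tgm5, out of 10500 probes on the array, of which 8983 carried a single gene symbol. The rule reads only the symbols, but it was set with earlier results of these data known. Lacrimal, meibomian and submandibular glands were taken after 21 days of exposure to pellets with or without testosterone, which gave 6 groups of 3 arrays. Each array held RNA of 1 pool, called A, B or C, made from 10 glands of 5 animals. All animals had been castrated, so the placebo groups lacked testicular androgen and no intact male was included. The labels give neither the age of the mice nor the dose, name 4 animals per sex and experiment beside the 5 per pool, and leave unsaid whether a letter stands for the same mice in every gland.

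Intensities are linear and as deposited, and the median of each array lay between 0.929 and 0.952. A change is a difference of mean log2(intensity + 0.174) with its standard error (SE), and a fold is that change taken out of the log scale, which understates the change of dim probes. A change was called when its adjusted p, from limma with Benjamini-Hochberg adjustment over 7463 tested probes, lay under 0.05. Of the 58 members 55 were bright enough to be tested, and Krt12, S100a5 and Lce1g were not. Each test rests on 3 pools a group, and this number limits the precision. Intensities of different probes are not set against each other, because probes differ in how they bind.

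Keratins are the intermediate filament proteins of epithelia, and each filament pairs a type I with a type II keratin. Simple and glandular epithelia use Krt8 with Krt18, while the living upper layers of epidermis use Krt1 with Krt10, and hair shafts use a further set that is embedded in keratin-associated proteins. When a stratified epithelium cornifies, transglutaminases cross-link loricrin, small proline-rich (Sprr) and late cornified envelope (Lce) proteins onto a scaffold of envoplakin and periplakin, which forms a tough shell beneath the cell membrane. Lacrimal and submandibular glands are largely built of simple secretory epithelium. The meibomian gland, a sebaceous gland of the eyelid, empties through ducts lined by stratified epithelium, and cornification of that lining is known from obstructive disease of the gland.

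Sums of marker genes followed the 3 gland labels. For the 8 measured of 14 sebocyte genes they were 382 to 386 in meibomian, 13.4 to 16.2 in lacrimal and 24.6 to 34.5 in submandibular placebo pools. Mc5r, of the same list, went the other way, with placebo means of 0.488, 3.40 and 0.938 in that order of glands. The 5 measured of 7 genes of lacrimal acini summed to 1116 to 1159 in lacrimal and 11 to 12.6 in meibomian placebo pools, although the submandibular pools, at 656 to 733, shared them. The 2 measured of 7 granular duct genes, Egf and Klk1b5, summed to 681 to 776 in submandibular placebo pools and stayed at or under 19.6 in the other glands. Meibomian pools also held skeletal muscle RNA, as the 8 measured of 10 muscle genes summed to 176 to 219 there under placebo and to 3.7 to 4.69 in the lacrimal gland. They held conjunctival mucin RNA as well. The 4 measured of 6 goblet and conjunctival genes summed to 47.7 to 79.9 against 3.02 to 6.25, carried by Muc5ac and Tff1. The remaining genes of that list, Spdef and Tff3, went the other way and had their lowest placebo means in the meibomian gland. Spdef had means of 0.598 in meibomian and 2.6 in lacrimal placebo pools, and Tff3 had 0.112 and 0.63. What these neighbouring tissues contributed to the keratin values was not tested. The meibomian arrays spanned a narrower range. Their brightest probes reached 135 to 219, against 597 to 1042 on lacrimal and 636 to 743 on submandibular arrays. S100a6, Sprr1a, S100a11 and Sfn were among 88 probes that lay above 0.8 of the maximum of at least 1 meibomian array, and whether their meibomian values are compressed was not tested.

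In placebo-treated mice the meibomian gland carried most of the keratins and envelope genes at levels far above both other glands. Of 55 tested members, 41 were higher and 7 lower in meibomian than in lacrimal placebo pools, so that 87.3% were called against 67.9% of all tested probes (29.2% higher and 38.7% lower). Against the submandibular gland 43 were higher and 6 lower, or 89.1% beside 66.6% (30.6% higher and 36.0% lower). The median member stood 2.78 above the lacrimal and 2.96 above the submandibular gland on the log2 scale, where the medians of all probes were -0.12 and -0.08. Both comparisons use the same 3 meibomian arrays. Probes were tested when bright in 3 or more of all arrays, so brightness in the meibomian gland alone sufficed. This selection can raise the shares called higher there, among members and all probes alike. Without the filter on brightness, 41 of 58 members were higher and 9 lower than in the lacrimal gland. The shares of all probes were 21.2% and 51.4%. Against the submandibular gland 43 were then higher and 7 lower, beside 22.4% and 46.7% of all probes. As an order of levels, 37 members (67.3%) were called higher in the meibomian gland than in each of the others, which held for 22.6% of all probes, and 6 (10.9%) were called lower than in each, against 28.8%. In whole glands, fewer cells of a type and less RNA per cell cannot be told apart. The submandibular and lacrimal glands were closer to each other, with 7 members higher and 23 lower in the submandibular gland (54.5%, against 44.0% of all probes, with 17.8% higher and 26.2% lower).

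**Figure D1:**
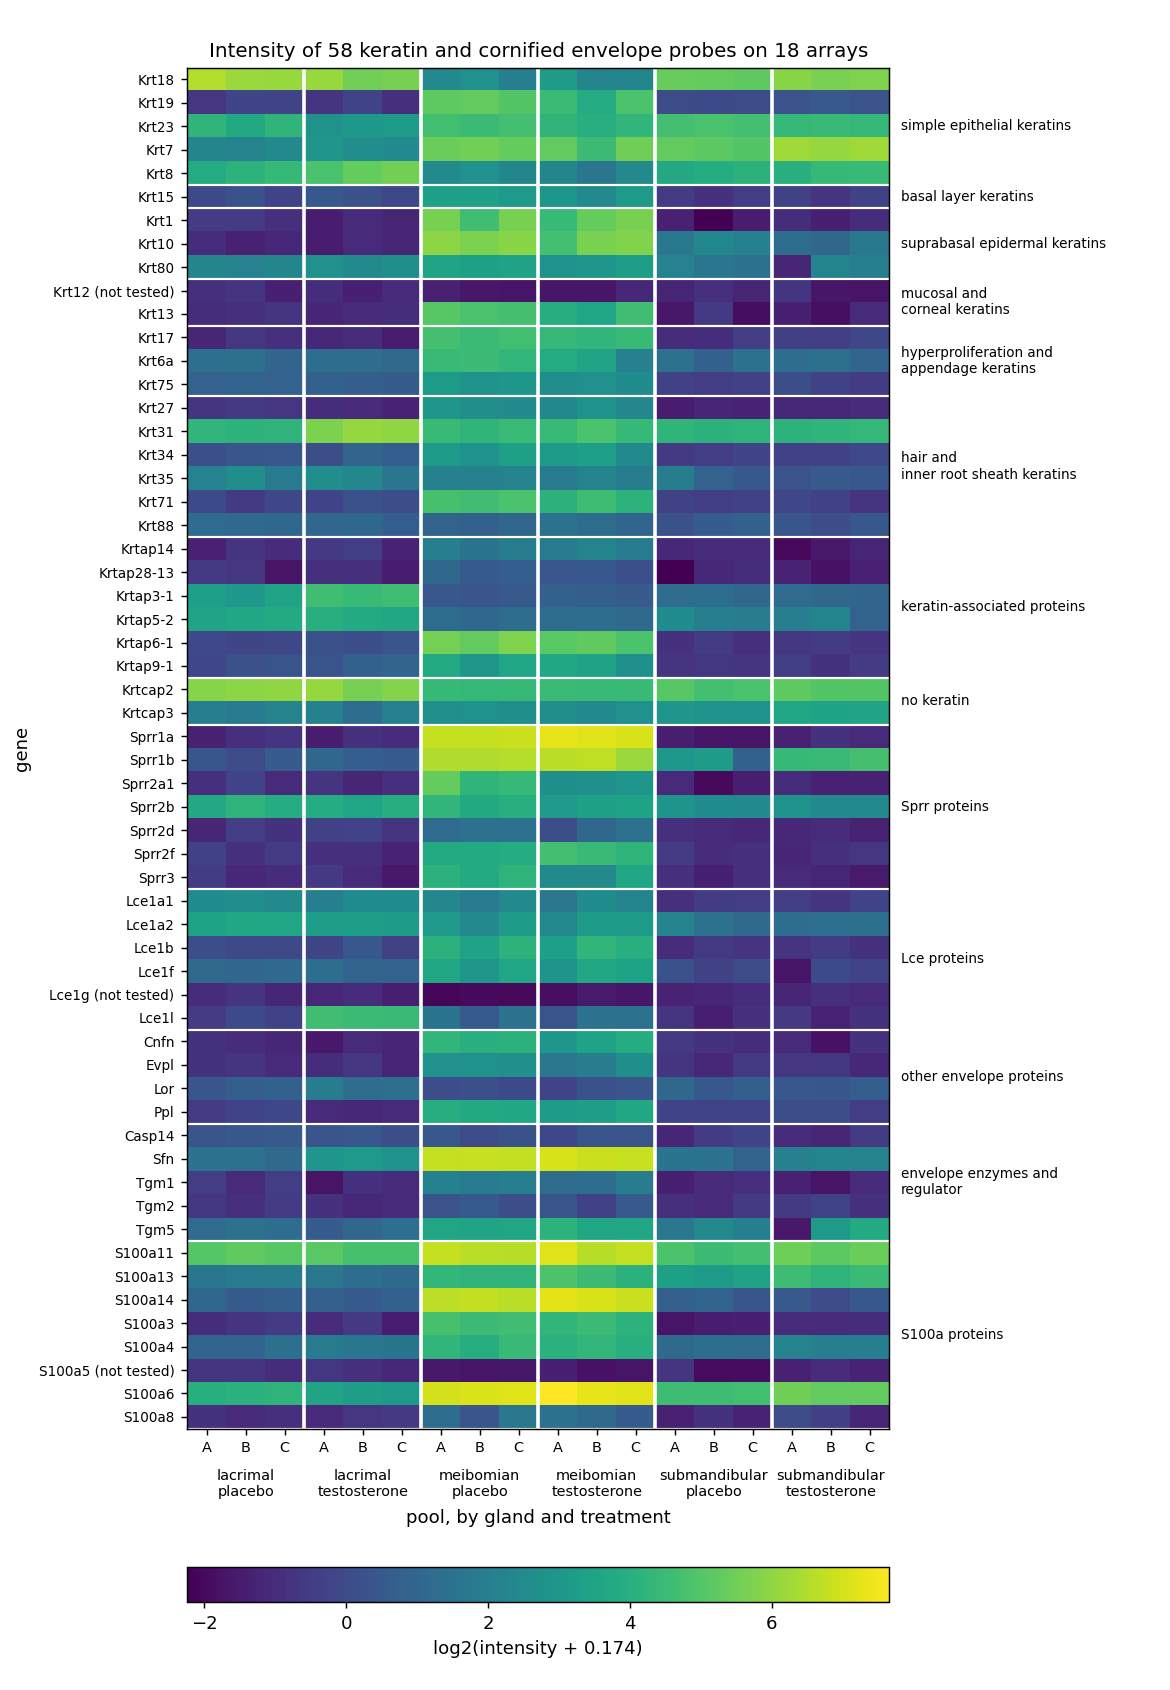
Log2 intensity (colour scale) of the 58 members (rows, ordered by role) on the 18 arrays (columns, pools A to C of placebo and testosterone in each gland). Most rows are brightest in the 6 meibomian columns, and Krt8, Krt18, Krtcap2, Krtap3-1, Krtap5-2 and Lor are among the exceptions. Colours are to be compared within a row, as probes differ.

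The simple epithelial keratins did not follow 1 pattern. Krt18, the type I partner of Krt8, read 91.5, 71.1 and 70.03 in lacrimal pools A, B and C, 40.9, 39.7 and 36.5 in submandibular pools and 5.41, 6.68 and 3.95 in meibomian pools, all under placebo. Krt8 read 14.3, 17.7 and 20.8 in lacrimal, 13.2, 14.4 and 17.2 in submandibular and 5.33, 6.59 and 4.76 in meibomian placebo pools. Both were thus lowest in the meibomian gland, by 14.3-fold and 3.1-fold against the lacrimal gland (adjusted p = 3.29e-10 and 5.54e-06), with no overlap of pools. Krt19, a small keratin of ducts and of conjunctival and follicular epithelium, ran the other way. It read 36.2, 38.7 and 32.2 in meibomian, 0.446, 0.701 and 0.683 in lacrimal and 0.829, 0.826 and 0.862 in submandibular placebo pools, a 46.2-fold difference between meibomian and lacrimal glands. Krt7, a keratin of glandular ducts, read 42.6, 47.1 and 39.3 in meibomian and 38.2, 35.5 and 31.7 in submandibular pools but 4.7, 4.4 and 5.23 in lacrimal pools. Meibomian and submandibular levels of Krt7 were not called different (adjusted p = 0.176), and both exceeded the lacrimal level in every pool. Krt23 read 25.3, 22.6 and 25.7 in meibomian, 25.4, 27.7 and 25.9 in submandibular and 18.4, 13.5 and 18.6 in lacrimal pools, so that the lacrimal gland was the lowest.

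Among keratins of stratified epithelium, Krt1, Krt10 and Krt13 showed wide gaps between glands. Krt1 read 49.1, 24.5 and 49.7 in meibomian placebo pools and between 0.0395 and 0.538 in every placebo pool of the other glands. Its type I partner Krt10 read 60.7, 51.4 and 59.2 in meibomian, 0.339, 0.222 and 0.288 in lacrimal and 3.13, 5.03 and 4.1 in submandibular pools. Outside the meibomian gland Krt10 was called 9.22-fold higher in the submandibular than in the lacrimal gland (adjusted p = 2.48e-08). Krt1 read 0.537, 0.538 and 0.372 in lacrimal and 0.22, 0.0395 and 0.192 in submandibular pools. It was called lower in the submandibular gland (adjusted p = 0.0119), but these values lie around or little above the offset of 0.174, so the difference is given no fold, and its call was lost in 4 of 30 alternatives. Krt15, a type I keratin of basal cells and of the follicle bulge, read 10.7, 10.6 and 8.52 in meibomian pools and no more than 1.005 elsewhere under placebo. Krt13, the type I keratin of mucosal stratified epithelium including conjunctiva, read 34.2, 27.8 and 26.8 in meibomian pools, 0.341, 0.376 and 0.418 in lacrimal pools and 0.155, 0.512 and 0.0974 in submandibular pools. Its meibomian level was 53.6-fold the lacrimal one. Krt80, a keratin of differentiating epithelia, read 11.5, 10.3 and 10.7 in meibomian, 4.72, 4.22 and 4.76 in lacrimal and 4.3, 2.93 and 2.65 in submandibular pools, and was called higher in the meibomian than in the submandibular gland but not than in the lacrimal gland (adjusted p = 0.0163 and 0.0722).

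All 3 tested keratins of wounded epithelium and skin appendages were highest in the meibomian gland. Krt17 read 26.3, 22.4 and 25.1 there, 0.266, 0.457 and 0.377 in lacrimal and 0.335, 0.344 and 0.561 in submandibular pools. Krt6a, its type II companion in activated epithelium, read 21.5, 22.9 and 19.6, 2.43, 2.5 and 1.8 and 2.61, 1.59 and 2.57 in the same order of glands. Krt75, of the companion layer of the hair follicle, read 8.72, 7.02 and 7.81, 1.63, 1.72 and 1.64 and 0.626, 0.565 and 0.627. The fold over the lacrimal gland was 46.3 for Krt17, 8.95 for Krt6a and 4.35 for Krt75.

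Hair genes were measured in the meibomian pools too, although unevenly. Krt71, a type II keratin of the inner root sheath, read 27.1, 24.1 and 28.4 in meibomian, 0.811, 0.509 and 0.738 in lacrimal and 0.634, 0.587 and 0.645 in submandibular placebo pools, and Krt27, a type I keratin of the same sheath, read 7.63, 6.04 and 5.56, 0.416, 0.495 and 0.452 and 0.193, 0.265 and 0.232. Krt34, a hair cortex keratin, read 8.73, 6.88 and 10.3, 0.942, 1.16 and 1.2 and 0.498, 0.564 and 0.718. These 3 of the 6 tested hair and root sheath keratins were highest in the meibomian gland. Krt31, another hair cortex keratin and the chromosomal neighbour of Krt34, was not: it read 22.1, 18.4 and 22.5, 19.2, 17.9 and 18.3 and 18.8, 17.2 and 18.2, with overlapping pools. Krt35 and Krt88 had meibomian means of 4.16 and 1.72 and lacrimal means of 4.57 and 2.03, and neither was called different between these glands. The keratin-associated proteins, which form the matrix between hair filaments, split into opposite groups. Krtap6-1 read 47.3, 39 and 53.5 in meibomian, 0.799, 0.708 and 0.766 in lacrimal and 0.389, 0.523 and 0.359 in submandibular pools. Krtap9-1 read 13.8, 7.72 and 11.7, 0.741, 0.978 and 1.09 and 0.43, 0.465 and 0.417, and Krtap14 read 3.82, 2.82 and 3.67, 0.225, 0.439 and 0.336 and 0.293, 0.327 and 0.307. With Krtap28-13, whose meibomian and lacrimal means were 1.57 and 0.365, these were highest in the meibomian gland. Krtap3-1 and Krtap5-2 were lowest there: Krtap3-1 read 1.2, 1.11 and 1.25 in meibomian, 10.02, 8.09 and 11.3 in lacrimal and 2.29, 2.38 and 1.96 in submandibular pools, and the means of Krtap5-2 were 2.14, 12.5 and 4.4. Krtcap2 and Krtcap3 share the start of the symbol but are not keratins. Krtcap2, which was also lowest in the meibomian gland and is a subunit of the oligosaccharyltransferase complex, read 58.5, 61.5 and 63.8 in lacrimal, 33.7, 25.9 and 28.5 in submandibular and 20.6, 20.3 and 21 in meibomian pools, and Krtcap3 read 3.82, 3.47 and 4.37, 7.29, 6.78 and 6.85 and 6.4, 7.08 and 6.25.

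Among envelope precursors, 6 of 7 Sprr genes were highest in the meibomian gland. Sprr1a, which is cross-linked early into the envelope, had the largest fitted difference of the members, with log2 values of 7.81 against the lacrimal and 8.38 against the submandibular gland (adjusted p = 4.65e-15 and 3.08e-15). Its size is uncertain, as the probe lay at 78.4 to 81.7% of the maximum of the meibomian placebo arrays and its submandibular values lay around the offset of 0.174. Over the alternatives the differences ran from 6.78 to 8.90 and from 7.03 to 9.23. It read 109, 109 and 117 in meibomian, 0.219, 0.354 and 0.419 in lacrimal and 0.205, 0.144 and 0.14 in submandibular placebo pools. Sprr1b, from the same gene cluster, read 88.9, 89.6 and 93, 1.15, 0.83 and 1.34 and 8.07, 8.996 and 1.63, so that submandibular pool C stood apart from A and B. Sprr2a1 read 40.04, 18.9 and 21, 0.354, 0.656 and 0.298 and 0.30, 0.079 and 0.203, and Sprr2f read 13.7, 13.7 and 14.7, 0.637, 0.372 and 0.53 and 0.515, 0.327 and 0.358. Neither exceeded 0.656 in the lacrimal and submandibular placebo pools. The meibomian and lacrimal means were 16.3 and 0.375 for Sprr3, an envelope protein of oesophagus and other mucosae, and 2.44 and 0.409 for Sprr2d. Sprr2b was the exception, with a meibomian mean of 16.1 and a lacrimal mean of 15.3 (adjusted p = 0.757).

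The Sprr genes lie side by side on mouse chromosome 3, within the stretch that also holds Lor, the Lce genes and the S100a genes and that accounts for 23 of the 58 members. In the RefSeq gene order Sprr1b, Sprr3 and Sprr1a are direct neighbours. Their promoters are printed because these 3 genes share high meibomian levels and Sprr1b alone was called with testosterone. Those of Sprr2a1 and Lce1l are printed because these were the other called members of the Sprr and Lce families, and that of Sprr2f because it was called higher in the meibomian arrays fitted alone, where Sprr2a1 was lower. Each line gives 250 bases before and 50 after the start of the gene, 5′ to 3′ on the strand of the gene, from RefSeq on build GRCm38.p6. Capitals mark 3 motifs, each searched on both strands, and no matches overlapped. The first is TATAAA, the box that some promoters hold before the start of transcription. The second is TGANTCA, the core of an AP-1 site, where N is any base. The third is AGAACA, 1 arm of the androgen response element.
Sprr1b, chr3:92438730-92439029, minus strand: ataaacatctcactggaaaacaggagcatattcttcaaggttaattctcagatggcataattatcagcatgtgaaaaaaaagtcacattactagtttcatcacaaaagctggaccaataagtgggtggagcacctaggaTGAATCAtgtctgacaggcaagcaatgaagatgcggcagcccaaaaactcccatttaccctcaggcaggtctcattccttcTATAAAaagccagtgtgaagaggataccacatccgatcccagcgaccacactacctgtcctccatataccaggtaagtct
Sprr3, chr3:92458671-92458970, minus strand: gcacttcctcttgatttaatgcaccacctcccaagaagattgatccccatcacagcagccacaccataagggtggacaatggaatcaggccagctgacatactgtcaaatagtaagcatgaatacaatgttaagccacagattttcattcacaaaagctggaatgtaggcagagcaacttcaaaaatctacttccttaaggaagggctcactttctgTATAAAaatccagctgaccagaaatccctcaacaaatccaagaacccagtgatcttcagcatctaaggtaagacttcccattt
Sprr1a, chr3:92485832-92486131, minus strand: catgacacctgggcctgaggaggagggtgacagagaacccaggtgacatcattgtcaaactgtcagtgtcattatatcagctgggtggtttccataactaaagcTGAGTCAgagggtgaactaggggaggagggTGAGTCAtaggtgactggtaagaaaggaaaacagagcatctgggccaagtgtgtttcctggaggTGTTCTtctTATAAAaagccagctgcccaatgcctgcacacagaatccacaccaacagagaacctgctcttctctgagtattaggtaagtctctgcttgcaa
Sprr2f, chr3:92364937-92365236, plus strand: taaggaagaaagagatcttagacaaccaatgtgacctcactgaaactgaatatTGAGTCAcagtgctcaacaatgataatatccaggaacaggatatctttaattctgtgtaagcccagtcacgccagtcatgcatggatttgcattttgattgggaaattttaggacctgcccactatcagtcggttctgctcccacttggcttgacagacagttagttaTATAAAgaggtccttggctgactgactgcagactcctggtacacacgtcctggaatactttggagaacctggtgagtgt
Sprr2a1, chr3:92215585-92215884, plus strand: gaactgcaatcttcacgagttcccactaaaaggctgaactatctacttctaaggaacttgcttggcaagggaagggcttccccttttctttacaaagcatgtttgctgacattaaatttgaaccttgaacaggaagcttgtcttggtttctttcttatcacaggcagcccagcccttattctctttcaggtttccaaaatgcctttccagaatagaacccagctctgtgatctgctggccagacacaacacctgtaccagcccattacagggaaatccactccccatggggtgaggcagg
Lce1l, chr3:92851237-92851536, minus strand: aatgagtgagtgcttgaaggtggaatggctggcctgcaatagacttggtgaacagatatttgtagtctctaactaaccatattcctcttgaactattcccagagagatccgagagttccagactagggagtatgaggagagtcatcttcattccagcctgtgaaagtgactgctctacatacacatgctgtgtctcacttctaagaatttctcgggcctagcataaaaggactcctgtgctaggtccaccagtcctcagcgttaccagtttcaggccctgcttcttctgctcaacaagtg
TATAAA occurred in the windows of Sprr1b, Sprr3, Sprr1a and Sprr2f, between 29 and 43 bases before the start. TGANTCA occurred in those of Sprr1b, Sprr2f and, at 2 places, Sprr1a, where AGAACA was also present on the opposite strand. None of the 3 motifs occurred in the windows of Sprr2a1 and Lce1l. Windows were at hand for 44 of the 58 members, 50 in all. TATAAA was in 42% of them and in 13.6% of all 32851 windows of the RefSeq table, TGANTCA in 20% against 7.81%, and AGAACA in 20% against 19%. A match describes letters and shows no binding.

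The Lce genes, which encode small proteins added late to the envelope, differed among themselves. Lce1b read 17.2, 10.9 and 17.7 in meibomian, 0.936, 0.778 and 0.798 in lacrimal and 0.336, 0.498 and 0.424 in submandibular placebo pools, and Lce1f read 12.7, 7.78 and 12, 2.09, 1.88 and 2.04 and 1.03, 0.614 and 0.83. Lce1l was also highest in the meibomian gland, at 2.77, 1.3 and 2.67 against 0.518, 0.821 and 0.647 and 0.429, 0.207 and 0.389. Lce1a2 was not. It read 8.47, 5.11 and 8.88 in meibomian and 11.1, 12.8 and 12.1 in lacrimal pools, 1.63-fold lower in the meibomian gland (adjusted p = 0.019), and 4.35, 2.66 and 2.07 in submandibular pools. Lce1a1, its close homologue, had means of 4.57, 5.68 and 0.491 in the same order. How far the probes of Lce1a1 and Lce1a2, of Sprr2a1 and its neighbours Sprr2a2 and Sprr2a3, and of Krt6a and Krt6b separate these near-identical copies was not tested.

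Cnfn and the scaffold genes Ppl and Evpl were highest in the meibomian gland. Cornifelin (Cnfn) read 19.3, 15.7 and 17.1 in meibomian, 0.396, 0.336 and 0.271 in lacrimal and 0.486, 0.408 and 0.345 in submandibular placebo pools. Periplakin (Ppl) read 14.8, 13.4 and 12.8, 0.521, 0.665 and 0.774 and 0.67, 0.686 and 0.663, and its partner envoplakin (Evpl) read 6.61, 6.96 and 6.39, 0.407, 0.433 and 0.308 and 0.441, 0.298 and 0.509. Loricrin (Lor), the main envelope protein of epidermis, read 0.895, 0.962 and 0.824, 1.16, 1.53 and 1.62 and 1.99, 1.22 and 1.47. It was called 1.5-fold lower in meibomian than in lacrimal pools (adjusted p = 0.0188), opposite to Cnfn, Ppl and Evpl. Of the enzymes, Tgm1, the membrane-bound transglutaminase of keratinocytes, read 4.15, 3.34 and 3.85 in meibomian, 0.556, 0.302 and 0.557 in lacrimal and 0.211, 0.299 and 0.365 in submandibular pools. Tgm5, another epidermal transglutaminase, read 11.9, 11.4 and 11.9, 2.12, 2.56 and 2.27 and 3.12, 5.21 and 3.93. Tgm2, the widely expressed tissue transglutaminase, had a meibomian mean of 1.08 and a lacrimal mean of 0.455, and Casp14, the caspase of cornifying cells, had means of 1.02 and 1.17, which were not called different. Stratifin (Sfn, 14-3-3 sigma), a regulator of keratinocyte growth and differentiation, read 109, 112 and 106 in meibomian, 2.67, 2.56 and 2.06 in lacrimal and 2.75, 2.7 and 1.77 in submandibular pools, a 42.1-fold difference between the first and second.

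All 7 tested S100a genes, which encode calcium-binding proteins, were highest in the meibomian gland. S100a6 read 131, 137 and 142 there, 15.8, 16.7 and 18.1 in lacrimal and 24, 24 and 25 in submandibular placebo pools. S100a14 read 100.3, 106 and 99.6, 1.89, 1.38 and 1.5 and 1.57, 1.77 and 1.14, and S100a11, an envelope component, read 110.2, 98.9 and 95.3, 33.3, 37.7 and 34 and 28.7, 22.9 and 25.9. S100a3, a protein of the hair cuticle, read 27.1, 23.2 and 24.3, 0.349, 0.435 and 0.522 and 0.141, 0.192 and 0.217. The pools of the 3 glands did not overlap between meibomian and either other gland for any of these genes. S100a8, a neutrophil and stressed-keratinocyte protein, had means of 2.17, 0.357 and 0.285 in the same order of glands. The 9 measured of 13 neutrophil genes summed to 9.27 to 12.1, 79.2 to 87.5 and 3.21 to 3.44, where Ltf, which is also a secretory product of the lacrimal gland, gave 75.3 to 83.9 of the lacrimal sum. The other 8 summed to 2.03 to 2.54, 3.65 to 3.85 and 2.67 to 3.06.

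Testosterone changed some members in each gland. In the lacrimal gland 10 of 55 were called, 7 higher and 3 lower (18.2%, against 28.1% of all tested probes, with 13.3% higher and 14.8% lower). In the submandibular gland 8 were called, all higher (14.5%, against 13.8% of all probes called in either direction, 8.54% higher and 5.25% lower). In the meibomian gland 1 was called, and it was lower (1.82%, against 0.590% of all probes, 0.469% higher and 0.121% lower). The shares of members called were near those of all probes in the submandibular and below them in the lacrimal gland. Altogether 16 genes were called in at least 1 gland, 3 in 2 glands and 0 in all 3. The matching shares of all probes were not counted, so these overlaps are not read as a trait of the members.

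**Figure D2:**
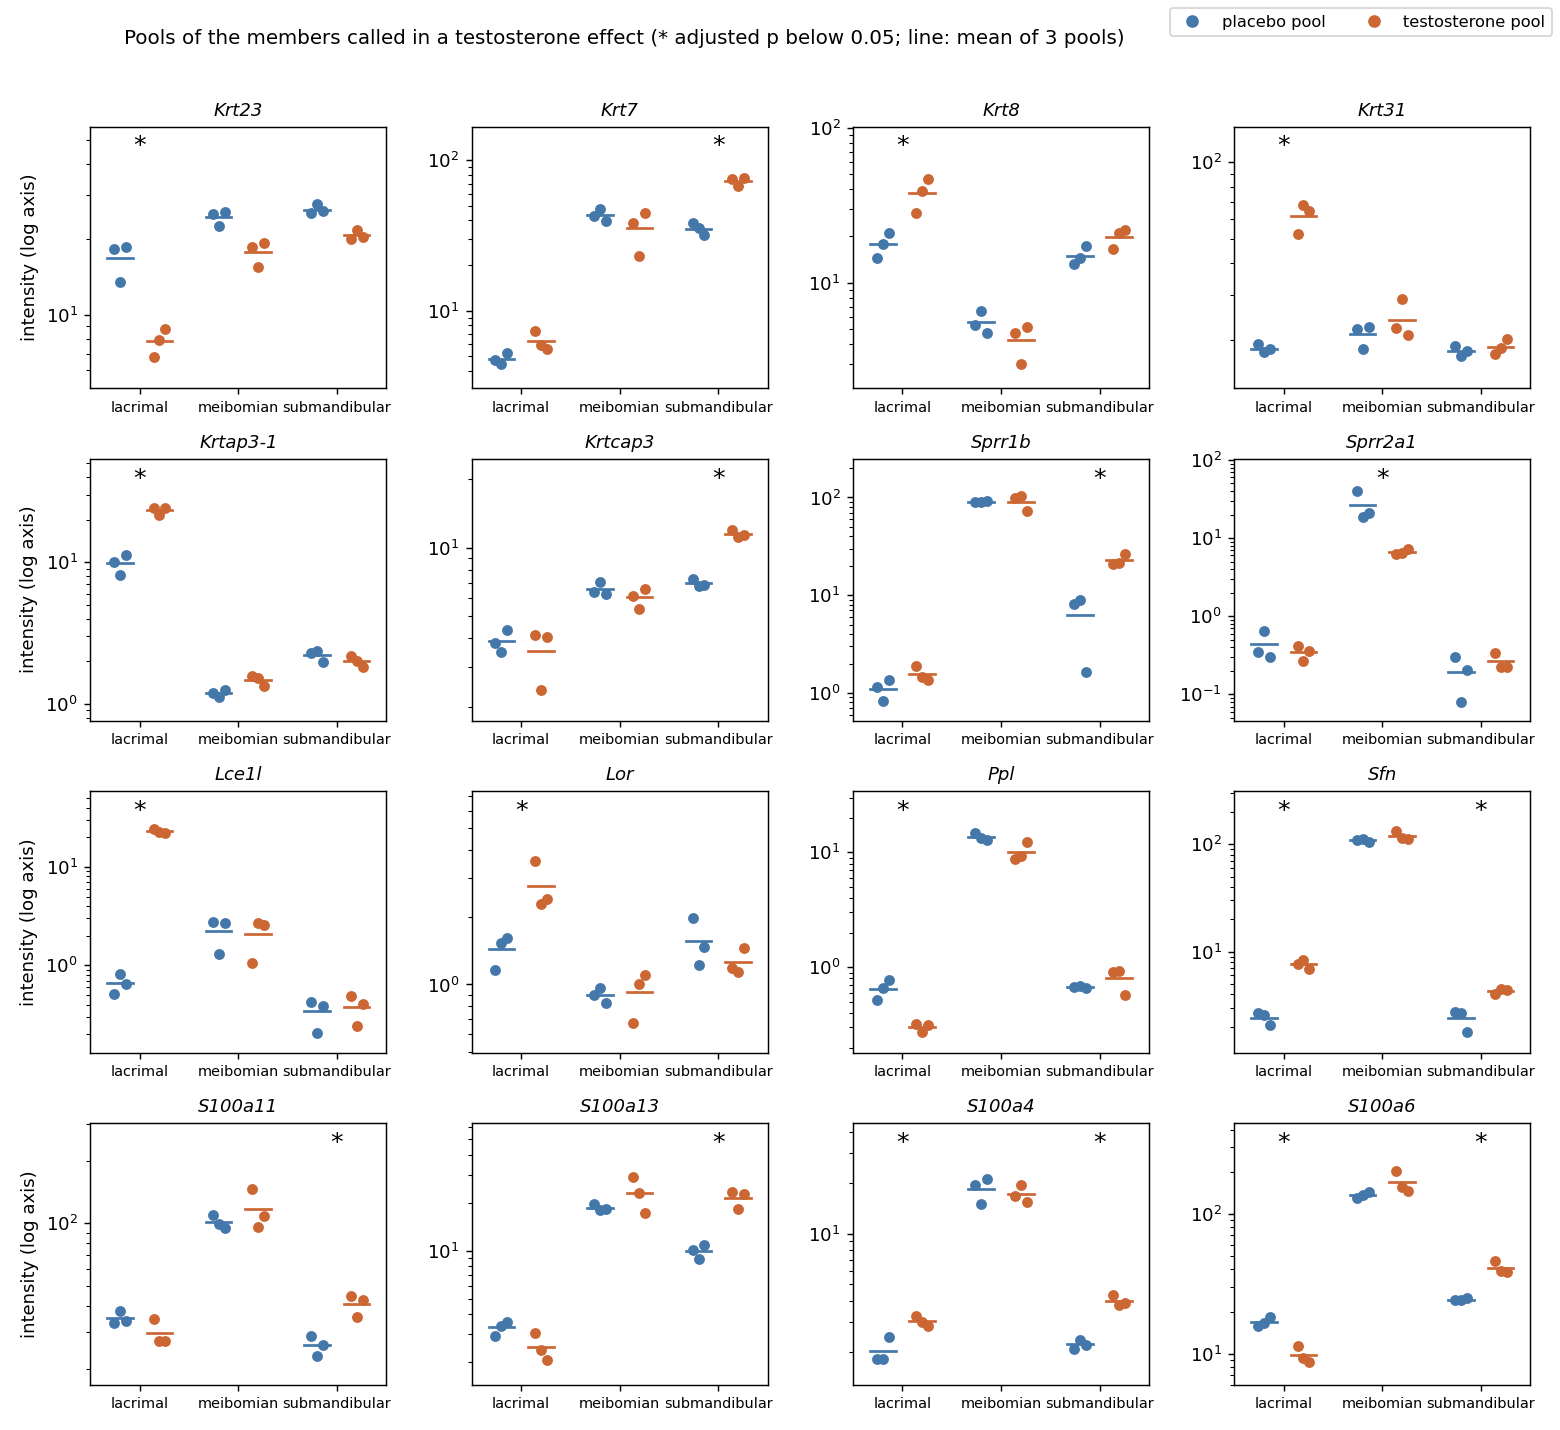
Intensity (log axis) of the 16 members called in at least 1 gland, 1 panel per gene, with 1 point per pool for placebo and testosterone in each gland and an asterisk over each called change. Lce1l rises from under 1 to over 22 in all 3 lacrimal testosterone pools, and Sprr2a1 falls to between 6.34 and 7.33 in the meibomian ones.

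The largest change was that of Lce1l in the lacrimal gland. Its placebo pools A, B and C read 0.518, 0.821 and 0.647 and its testosterone pools 24.5, 22.5 and 22.1. All 3 testosterone pools were far above all placebo pools, a log2 change of 4.81 ± 0.32 or 28.1-fold (adjusted p = 4.96e-09). Over the alternatives the log2 change ran from 4.13 to 5.05. The 4 other tested Lce genes were not called in that gland, with log2 changes of -0.35 for Lce1a2, -0.15 for Lce1a1, -0.08 for Lce1f and -0.02 for Lce1b. Lce1l lies at the end of the Lce1 row, between Kprp and 2310050C09Rik, and the promoter window printed for it held none of the 3 motifs.

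Another 2 lacrimal calls were genes of the hair shaft. Krt31 read 19.2, 17.9 and 18.3 in lacrimal placebo and 52.1, 67.9 and 64.1 in testosterone pools, a 3.28-fold rise (log2 change 1.71 ± 0.13, adjusted p = 4.62e-08). Krt34 and Krt35, from the same row of hair keratin genes, were not called, with log2 changes of 0.27 and -0.01. Krtap3-1 read 10.02, 8.09 and 11.3 under placebo and 24.2, 21.5 and 24.1 with testosterone, without overlap, and rose 2.37-fold (log2 change 1.24 ± 0.13, adjusted p = 1.35e-06). Krtap6-1 and Krtap9-1 also had higher values in every testosterone pool but were not called (log2 changes of 0.34 and 0.58, adjusted p = 0.0948 and 0.0946).

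The simple epithelial pair separated in the lacrimal gland. Krt8 read 14.3, 17.7 and 20.8 under placebo and 28.2, 39.3 and 46.8 with testosterone, a 2.13-fold rise without overlap (log2 change 1.09 ± 0.22, adjusted p = 0.00131). Krt18, the adjacent gene and filament partner, read 91.5, 71.1 and 70.03 and 69.9, 46.8 and 49, lower in every testosterone pool but not called (log2 change -0.50 ± 0.23, adjusted p = 0.124). Krt23 fell: it read 18.4, 13.5 and 18.6 and then 6.81, 7.96 and 8.76, a 2.11-fold decrease without overlap (log2 change -1.08 ± 0.13, adjusted p = 1.14e-05). The same direction was seen in the other glands without a call, with log2 changes of -0.46 (meibomian) and -0.34 (submandibular).

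Among envelope genes of the lacrimal gland, Sfn and Lor rose and Ppl fell. Sfn read 2.67, 2.56 and 2.06 under placebo and 7.69, 8.33 and 6.87 with testosterone, a 3.001-fold rise (log2 change 1.59 ± 0.15, adjusted p = 3.75e-07). Lor read 1.16, 1.53 and 1.62 and 3.56, 2.3 and 2.42, a 1.81-fold rise (adjusted p = 0.00491). Ppl, at low intensity, read 0.521, 0.665 and 0.774 and 0.323, 0.275 and 0.316 and was 1.72-fold lower with testosterone (adjusted p = 0.00219). Pools did not overlap for any of the 3. Ppl's companion Evpl had a log2 change of -0.09 and was not called. Closely spaced S100a genes changed in opposite directions: S100a4, a protein of mesenchymal and immune cells, read 1.8, 1.8 and 2.45 under placebo and 3.27, 2.98 and 2.83 with testosterone, a 1.47-fold rise (adjusted p = 0.00853). S100a6 read 15.8, 16.7 and 18.1 and 11.3, 9.33 and 8.74, a 1.72-fold fall (adjusted p = 0.000229). All 7 tested Sprr genes were without a call in this gland, with log2 changes between -0.45 for Sprr2f and 0.46 for Sprr1b.

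Markers of other cell types shifted in the same lacrimal pools. The 4 measured of 6 smooth muscle and myoepithelial genes (Acta2, Cnn1, Myh11 and Tagln) were all lower with testosterone, and their sum was 22.8 to 26.7 under placebo and 10.6 to 12.3 with testosterone. Of 7 fibroblast genes 2 were lower, Postn and Lum, and the sum was 31.8 to 39.5 under placebo and 21.9 to 28.3 with testosterone. Of 8 sebocyte genes Cidea, Scd1 and Dgat2 were higher and Plin2 was lower, with sums of 13.4 to 16.2 and 18 to 27.6. The melanosome gene Pmel and the dendritic cell gene Itgax were higher, and Cd74 and the adipocyte gene Retn were lower. Of the neutrophil list Ltf was lower and Ngp higher, and the 8 genes other than Ltf summed to 3.65 to 3.85 under placebo and 3.51 to 4.22 with testosterone. The sum of 5 acinar genes was 1116 to 1159 under placebo and 633 to 807 with testosterone, with 2 of 5 lower. The part of these shifts in the keratin changes was not tested.

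In the submandibular gland all 8 called members rose. Sprr1b led: its placebo pools A, B and C read 8.07, 8.996 and 1.63 and its testosterone pools 20.8, 21.6 and 26.3, a log2 change of 2.16 ± 0.41 or 4.46-fold (adjusted p = 0.00217). Placebo pool C was far below A and B, and the size depends on it. Without that pool the log2 change was 1.40 (adjusted p = 0.00016), and with the submandibular arrays fitted alone the call was lost (adjusted p = 0.0919). The 3 measured of 6 adipocyte genes summed to 46.6, 78.3 and 134 in the same placebo pools, highest in C, and their part was not tested. The direct neighbours of Sprr1b were not called, at -0.20 for Sprr3 and 0.52 for Sprr1a (adjusted p = 0.72 and 0.071). The windows printed above hold TATAAA in all 3 of these neighbours.

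Krt7 was the keratin that rose in the submandibular gland. It read 38.2, 35.5 and 31.7 under placebo and 75, 67.7 and 76.3 with testosterone, 2.08-fold higher without overlap (log2 change 1.05 ± 0.19, adjusted p = 0.00103). The other simple keratins Krt8, Krt18 and Krt19 had log2 changes of 0.39, 0.47 and 0.35 and were not called. Sfn, called in the lacrimal gland too, read 2.75, 2.7 and 1.77 and 4.04, 4.52 and 4.38, a 1.77-fold rise (adjusted p = 0.0012). Krtcap3, no keratin, read 7.29, 6.78 and 6.85 and 11.9, 11.1 and 11.4, a 1.63-fold rise (adjusted p = 0.00873).

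The S100a family gave 4 of the 8 submandibular calls, out of 7 tested. S100a13, a protein linked to non-classical secretion, read 10.1, 8.82 and 10.8 under placebo and 23.5, 18.3 and 22.7 with testosterone, a 2.14-fold rise (log2 change 1.10 ± 0.18, adjusted p = 0.000446). S100a14, its neighbour on the chromosome, read 1.57, 1.77 and 1.14 and 1.25, 0.849 and 1.23 and was not called (log2 change -0.37, adjusted p = 0.161). S100a4 read 2.06, 2.35 and 2.2 and 4.35, 3.77 and 3.88, 1.75-fold higher (adjusted p = 0.0012). S100a6 and S100a11 followed, without overlap of pools in either. S100a6 read 24, 24 and 25 and then 45.8, 39 and 38.3, a 1.68-fold rise (adjusted p = 0.000945), which is the direction opposite to that in the lacrimal gland. S100a11 read 28.7, 22.9 and 25.9 and 44.5, 35.5 and 42.6, a 1.58-fold rise (adjusted p = 0.00932). S100a3, dim in this gland, had a log2 change of 0.47 and was not called.

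Markers of other cell types moved in both directions in the same submandibular pools. The 4 smooth muscle and myoepithelial genes all rose, with a sum of 61 to 72.6 under placebo and 137 to 157 with testosterone. Of the 7 measured of 8 fibroblast genes 4 rose, and their sum was 43.7 to 53 under placebo and 56.8 to 68.8 with testosterone. Of the 2 granular duct genes 1 rose, Egf, from a mean of 35.2 to 273. Klk1b5 went the other way, without a call. It read 647, 672 and 743 under placebo and 497, 568 and 462 with testosterone. The sums of both genes, 681 to 776 and 729 to 829, hide these opposite directions. The macrophage gene Cd14 also rose. The adipocyte genes Retn and Fabp4 fell, and the sum of 3 adipocyte genes was 46.6 to 134 under placebo and 41.9 to 46.3 with testosterone. The skeletal muscle genes Ckm and Tnnt3 fell, with sums of 4.4 to 10.6 and 3.54 to 4.1, and so did the sebocyte gene Scd1. The part of these shifts in the rise of the S100a genes was not tested.

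In the meibomian gland, where the members were highest, Sprr2a1 was the single member called. Its placebo pools A, B and C read 40.04, 18.9 and 21 and its testosterone pools 6.34, 6.51 and 7.33, a log2 change of -1.88 ± 0.28 or 3.67-fold lower (adjusted p = 0.018). Every testosterone pool lay below every placebo pool. The call was lost when placebo pool A (adjusted p = 0.114), testosterone pool A (0.0712) or testosterone pool B (0.102) was left out, with log2 changes that stayed between -1.86 and -1.54. Fitted without the other glands, the meibomian arrays gave Sprr2a1 an adjusted p of 0.0193 and added Sprr2f, which was higher with testosterone (log2 change 0.64, adjusted p = 0.0418). In that fit 2.43% of all probes were called higher and 0.871% lower.

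The tested members as a set, Sprr2a1 among them, leaned downward in the meibomian gland. Of 55 members 38 had a log2 change below 0 and 17 above, while a smaller share of all probes, 40.5%, lay below 0. The medians were -0.13 for the members and 0.06 for all probes. Pools did not overlap for 17 members that were lower with testosterone (30.9%, against 11.8% of all probes) and for 7 that were higher (12.7%, against 24.1%). The lower ones included mucosal and envelope genes. Krt6a read 21.5, 22.9 and 19.6 under placebo and 14.4, 11.6 and 3.999 with testosterone, with testosterone pool C the lowest (log2 change -1.26 ± 0.33, adjusted p = 0.0912). Sprr3 had means of 16.3 ± 2.06 and 7.56 ± 3.88 (SD, n = 3; log2 change -1.19 ± 0.30, adjusted p = 0.0834), and Sprr2b had means of 16.1 ± 2.98 and 9.95 ± 1.43 (log2 change -0.68 ± 0.17, adjusted p = 0.0825). Neither passed the threshold. Krt13 read 34.2, 27.8 and 26.8 and 15, 12.1 and 24.3, and Krt19 read 36.2, 38.7 and 32.2 and 22.5, 14.2 and 28.3. Their log2 changes were -0.84 and -0.77, and the adjusted p was 0.232 and 0.138.

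Cnfn and the scaffold genes Evpl and Ppl had the same lean. Evpl read 6.61, 6.96 and 6.39 under placebo and 2.998, 3.55 and 6.21 with testosterone, Cnfn read 19.3, 15.7 and 17.1 and 7.88, 11.2 and 14.7, and Ppl read 14.8, 13.4 and 12.8 and 8.71, 9.34 and 12.3. In each of these 3 genes testosterone pool C was nearest to placebo, and the log2 changes of -0.69, -0.65 and -0.44 were not called (adjusted p = 0.205, 0.241 and 0.26). Tgm1 read 4.15, 3.34 and 3.85 and 2.2, 2.26 and 3.63, with overlap. Sprr2f read 13.7, 13.7 and 14.7 and 25.5, 22.1 and 18.5, higher in every testosterone pool though not called in the fit of all arrays (log2 change 0.64 ± 0.18, adjusted p = 0.14). Sprr1a read 156, 144 and 132 and S100a6 201, 155 and 147 with testosterone, all above their placebo pools, but these are 2 of the probes near the array maximum, which itself was 135 to 143 on placebo and 148 to 219 on testosterone arrays. Among cell type markers, Cd74 and the adipocyte gene Retn were called lower in this gland, and no other listed marker was called. Their log2 changes were -0.87 and -1.16 (adjusted p = 0.0207 for both). The sebocyte genes, without a call, summed to 382 to 386 under placebo and 439 to 564 with testosterone. The part of these shifts in the lean of the members was not tested.

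**Figure D3:**
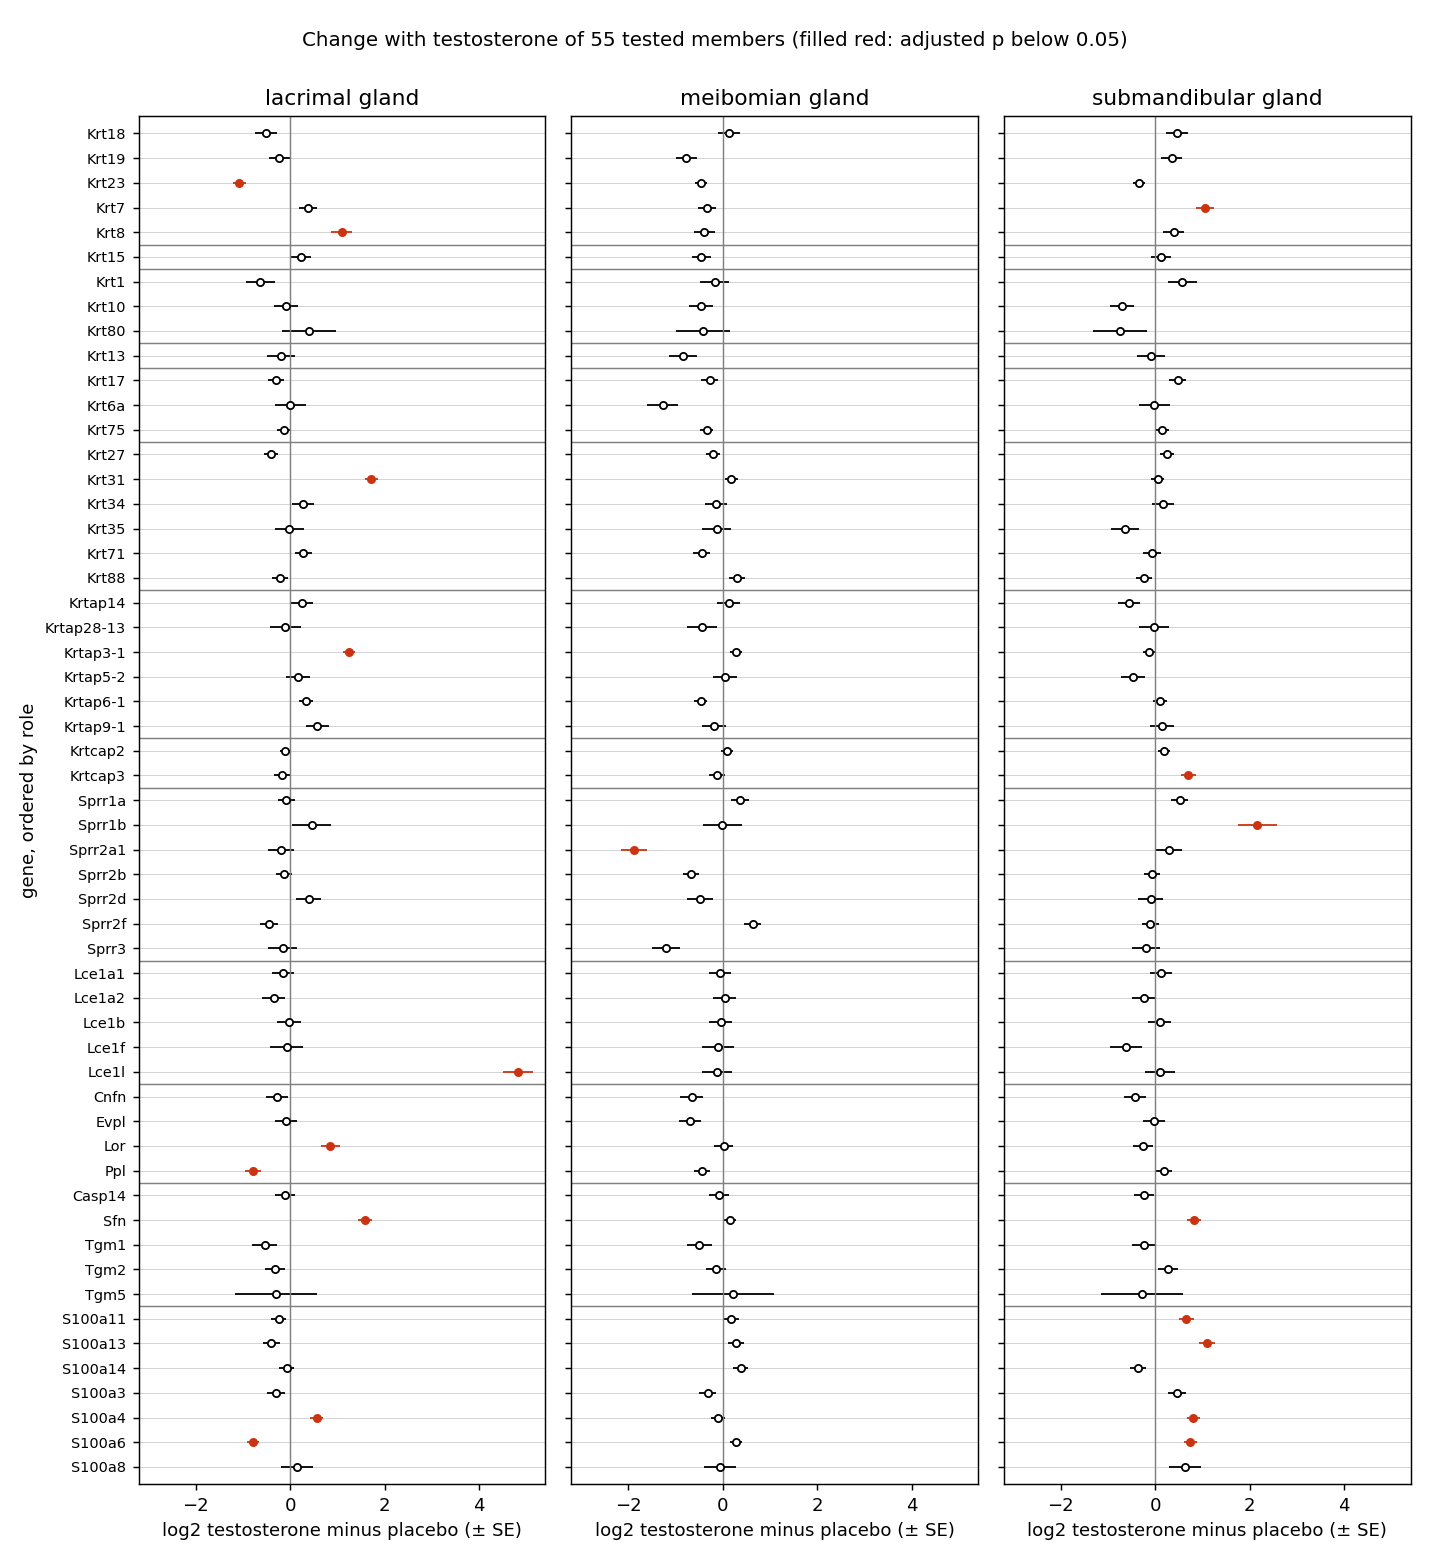
Log2 change with testosterone (horizontal axis, ± SE) of the 55 tested members in the lacrimal, meibomian and submandibular glands, with called changes in red. The called points number 10, 1 and 8, and most meibomian points, 38 of 55, lie to the left of 0.

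The meibomian pools also differed from each other within a treatment, in sets of members that moved together. These sets were picked after their values were seen, so they are described without a test. The 5 tested Lce genes, Krt1, Krt10, Krt80, Casp14, Cnfn, Krt35, Krt71, Sprr2a1, Sprr2b and Tgm1 were lowest in placebo pool B and in testosterone pool A, which makes 15 of 55 members (27.3%, against 8.06% of 7371 probes). Krt1 read 49.1, 24.5 and 49.7 under placebo and 21.7, 39.6 and 48.6 with testosterone. Krt10 read 25.4, 50.5 and 54.7 with testosterone, and Lce1b read 17.2, 10.9 and 17.7 and 9.98, 19.3 and 15.8. For Krt1 the highest placebo pool was 2.03 times the lowest and the highest testosterone pool 2.24 times the lowest, while the log2 change between treatments was -0.17. A second set, with all 6 Krtap genes, Krt31, Krt34, Krt75, Krt88, S100a3, S100a4, S100a8, S100a13, Sprr2f and Tgm5, was lowest in placebo pool B and testosterone pool C (16 members, 29.1%, against 18.3% of probes). Krtap6-1 read 47.3, 39 and 53.5 and 34.3, 37.7 and 28.7. The third set held Krt7, Krt8, Krt13, Krt15, Krt18, Krt19, Krtcap3, S100a11 and Tgm2, which were lowest in placebo pool C and testosterone pool B (9 members, 16.4%, against 11.3%). Krt7 read 42.6, 47.1 and 39.3 and 38.5, 23.2 and 44.8, and Krt15 read 10.7, 10.6 and 8.52 and 7.81, 5.43 and 8.79.

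**Figure D4:**
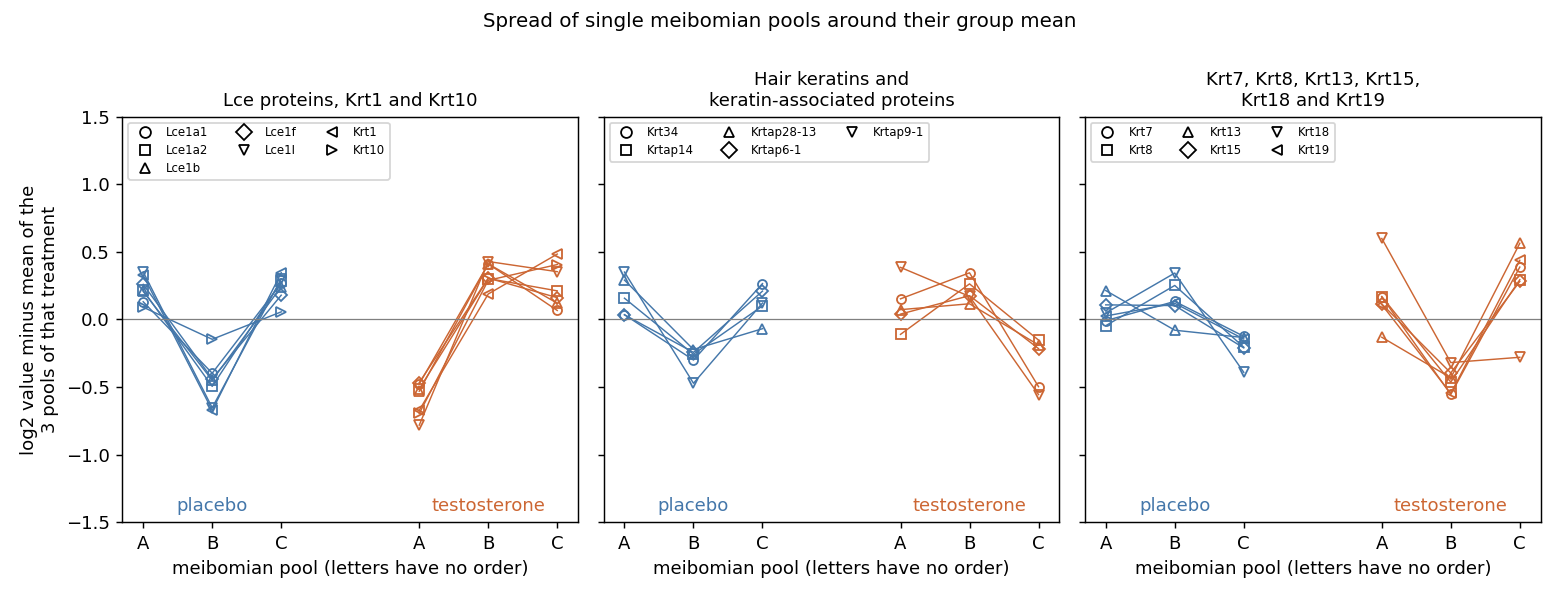
Log2 intensity of each meibomian pool minus the mean of its treatment's 3 pools (vertical axis), for epidermal members (first panel), hair members (middle panel) and keratins of ducts, conjunctiva and basal cells (last panel), by pool. Placebo B and testosterone A are lowest in the first panel, placebo B and testosterone C in the middle one, and placebo C and testosterone B in the last. The genes drawn were picked after their values were seen, because they share the pattern of their panel. Hair members not drawn include Krt31 and Krt88, which share the pattern of the middle panel, and Krt27, Krt35 and Krt71, which do not.

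A conjunctival marker sum varied over the same pools. The goblet and conjunctival list, in which Muc5ac and Tff1 gave nearly all of the signal, summed to 62, 79.9 and 47.7 over placebo pools A, B and C and to 85.1, 48.8 and 61.4 over testosterone pools. It was highest in placebo pool B and testosterone pool A, where the Lce genes, Krt1 and Krt10 were lowest, and lowest in placebo pool C and testosterone pool B, where Krt7, Krt13 and Krt19 were lowest. Of 12 marker lists, 4 were highest in the first of these pool combinations and 2 were lowest in the second. The part of conjunctival RNA in the pool differences was not tested.

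The testosterone effects differed in at least 1 comparison of glands for 23 members (41.8%), each tested by its interaction term. The matching share of all probes was counted only for single comparisons, not for all comparisons together. These comparisons share arrays in pairs. Between meibomian and lacrimal glands 11 members differed (20%, against 17.6% of all probes), between meibomian and submandibular glands 6 (10.9%, against 7.40%), and between submandibular and lacrimal glands 16 (29.1%, against 24.0%). Lce1l read 1.07, 2.7 and 2.55 in meibomian and 0.486, 0.243 and 0.404 in submandibular testosterone pools, so the lacrimal rise had no counterpart there, and its effect was lower by -4.93 and -4.71 (adjusted p = 5.9e-07 and 9.93e-07). Krt31 read 22.2, 29 and 20.9 and 17.5, 18.7 and 20.2 in these groups, and Krtap3-1 read 1.58, 1.52 and 1.33 and 2.17, 1.99 and 1.83. Both had a smaller effect there than in the lacrimal gland, with differences of -1.53 and -1.66 for Krt31 and -0.97 and -1.38 for Krtap3-1. Krt8, at 4.7, 2.97 and 5.14 in meibomian and 16.4, 20.8 and 21.8 in submandibular testosterone pools, differed between meibomian and lacrimal glands (difference -1.48, adjusted p = 0.00314) but was not called between submandibular and lacrimal glands (-0.70, adjusted p = 0.12).

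The Sprr genes called in 1 gland were dim or without a call in the others. Sprr2a1 read 0.419, 0.265 and 0.355 in lacrimal and 0.344, 0.227 and 0.226 in submandibular testosterone pools, and its meibomian effect was lower than both others (differences -1.68 ± 0.40 and -2.17 ± 0.40, adjusted p = 0.0072 and 0.00277). Sprr1b read 1.9, 1.47 and 1.36 in lacrimal and 97.6, 103 and 72 in meibomian testosterone pools. Its submandibular effect exceeded the meibomian one by 2.17 and the lacrimal one by 1.70, and by 1.41 and 0.94 without submandibular placebo pool C. These calls were lost in 9 and 20 of 30 alternatives. Krt7 read 7.36, 5.9 and 5.62 in lacrimal testosterone pools, and its meibomian effect was lower than the submandibular one by -1.38 (adjusted p = 0.00375). The submandibular effect of Krt7 was not called different from the lacrimal one (0.68, adjusted p = 0.0742). Krtcap3, at 4.13, 2.36 and 4.06 in lacrimal and 6.15, 5.4 and 6.6 in meibomian testosterone pools, rose more in the submandibular gland than in either. Lor read 0.672, 1.002 and 1.1 in meibomian and 1.18, 1.14 and 1.46 in submandibular testosterone pools, and its submandibular effect was lower than the lacrimal one by -1.11 (adjusted p = 0.0106). Ppl read 0.917, 0.926 and 0.568 in submandibular testosterone pools, where its effect exceeded the lacrimal one by 0.96 (adjusted p = 0.00736). Krt23 fell further in the lacrimal gland than its values did in the others, where it read 18.7, 15.6 and 19.4 in meibomian and 20.03, 21.8 and 20.5 in submandibular testosterone pools.

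S100a6 had the clearest opposition of direction, with a submandibular effect that exceeded the lacrimal one by 1.53 ± 0.18 on the log2 scale (adjusted p = 1.23e-05). S100a13 and S100a11 also had higher effects in the submandibular gland, by 1.49 and 0.90. In the lacrimal gland S100a13 read 2.92, 3.38 and 3.59 under placebo and 3.04, 2.38 and 2.05 with testosterone, and S100a11 read 33.3, 37.7 and 34 and 34.7, 27.2 and 27.3. Neither was called there. Sfn rose in both glands but more in the lacrimal one, by a difference of -0.77 (adjusted p = 0.0136), and its meibomian pools read 134, 116 and 113 with testosterone. S100a4 rose in both as well, and its effect was not called different between them (0.25, adjusted p = 0.41). Its meibomian pools read 19.3, 15 and 21.1 and 16.7, 19.4 and 15.4.

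Further members were separated by the interaction although none of their single effects was called. Krt19 read 0.829, 0.826 and 0.862 in submandibular placebo and 1.05, 1.25 and 1.05 in testosterone pools. Its meibomian effect was lower by -1.11 (adjusted p = 0.0362), a call lost in 13 of 30 alternatives. Krt18 read 40.9, 39.7 and 36.5 and 59.5, 50.6 and 52.7, and Krt17 read 0.335, 0.344 and 0.561 and 0.595, 0.569 and 0.741. Krt27 read 0.193, 0.265 and 0.232 and 0.288, 0.293 and 0.337, and S100a3 read 0.141, 0.192 and 0.217 and 0.305, 0.31 and 0.34. For these 4 the submandibular effect exceeded the lacrimal one by 0.97, 0.78, 0.66 and 0.77, with adjusted p of 0.0407, 0.0323, 0.0352 and 0.0428. In the same order, these calls were lost in 14, 11, 13 and 20 of 30 alternatives. Krt17, Krt27 and S100a3 lay between 0.141 and 0.741 in every submandibular and lacrimal pool. These values are near the offset and under the median of every array (0.929 or more), so the differences of these dim genes are uncertain. In the lacrimal gland Krt17 read 0.283, 0.332 and 0.179, Krt27 0.34, 0.313 and 0.249 and S100a3 0.325, 0.488 and 0.183 with testosterone. Krtap6-1 read 0.989, 0.91 and 1.13 in lacrimal testosterone pools, and its meibomian effect was lower by -0.81 (adjusted p = 0.0121). Sprr2f read 0.355, 0.38 and 0.244 in lacrimal testosterone pools, and its meibomian effect was higher by 1.08 (adjusted p = 0.00809).

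In the meibomian gland these genes had no call. Krt18 read 8.86, 4.61 and 4.74, Krt17 20.4, 19.1 and 21.4 and Krt27 5.06, 6.8 and 4.85 in testosterone pools A, B and C, and S100a3 read 19.3, 22.9 and 17.8. S100a13 read 19.7, 18.1 and 18.2 under placebo and 29.3, 22.9 and 17.3 with testosterone, and S100a11 read 146, 95.8 and 109 with testosterone. Krt19 read 0.443, 0.686 and 0.37 in lacrimal testosterone pools, and Krtap6-1 and Sprr2f read 0.447, 0.522 and 0.418 and 0.268, 0.365 and 0.45 in submandibular ones.

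Many of the brightest meibomian members were called in no testosterone effect and no difference of effects. Outside the meibomian gland the epidermal pair stayed low with testosterone: Krt1 read 0.193, 0.305 and 0.251 in lacrimal and 0.348, 0.209 and 0.338 in submandibular pools, and Krt10 read 0.183, 0.323 and 0.264 and 2.23, 1.99 and 3.09, where the submandibular pools of Krt10 lay below placebo without a call (log2 change -0.70, adjusted p = 0.0759). Krt15 read 1.24, 0.998 and 0.765 and 0.622, 0.412 and 0.652, Krt13 0.267, 0.319 and 0.351 and 0.217, 0.104 and 0.3001, and Krt6a 2.37, 2.26 and 2.07 and 2.26, 2.49 and 1.8 in the same testosterone groups. Krt15, Krt13 and Krt6a did not exceed 2.49 in these groups. Of the hair genes, Krt71 read 17.3, 23.8 and 17.7 in meibomian, 0.67, 1.01 and 0.927 in lacrimal and 0.745, 0.616 and 0.435 in submandibular testosterone pools. Krt34 read 8.64, 9.89 and 5.44, 0.928, 1.8 and 1.49 and 0.622, 0.644 and 0.781, and Krt75 read 6.08, 6.64 and 5.74, 1.61, 1.49 and 1.43 and 0.93, 0.646 and 0.534. The order of glands was that of placebo in these 3 genes. Krtap9-1 read 12.4, 10.7 and 6.39, 1.09, 1.61 and 1.78 and 0.578, 0.405 and 0.53, Krtap14 read 3.45, 4.51 and 3.34, 0.48, 0.586 and 0.246 and 0.0771, 0.163 and 0.254, and Krtcap2 read 22.5, 21.4 and 21.9, 67.2, 49.7 and 55.6 and 36.4, 31.6 and 32.1.

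The list of bright members without a call also held envelope genes. Lce1f read 7.13, 12.3 and 11.1 in meibomian, 2.37, 1.74 and 1.63 in lacrimal and 0.139, 0.801 and 0.685 in submandibular testosterone pools. Lce1a2 read 5.21, 9.3 and 8.72, 9.47, 9.57 and 9.12 and 2.36, 2.45 and 2.47, and Lce1b read 0.706, 1.2 and 0.638 and 0.429, 0.546 and 0.399 in the last 2 of these groups. Lce1a2 was lower in every lacrimal testosterone pool than in any placebo pool, without a call (log2 change -0.35, adjusted p = 0.333). In lacrimal and submandibular testosterone pools, Sprr1a read 0.186, 0.393 and 0.336 and 0.228, 0.395 and 0.317, Cnfn 0.166, 0.305 and 0.271 and 0.312, 0.124 and 0.398, Evpl 0.344, 0.453 and 0.257 and 0.458, 0.47 and 0.287, and Tgm1 0.131, 0.391 and 0.305 and 0.227, 0.133 and 0.317, none above 0.470. S100a14 read 151, 132 and 116 in meibomian and 1.54, 1.33 and 1.61 in lacrimal testosterone pools, above placebo in every meibomian pool without a call (log2 change 0.38, adjusted p = 0.322). In the lacrimal gland Tgm5 read 1.4, 1.88 and 2.44 and Krt80 6.58, 5.5 and 6.22 with testosterone.

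Single arrays stood apart for some members. Tgm5 read 0.162, 8.46 and 13.8 and Krt80 0.266, 4.52 and 3.9 in submandibular testosterone pools, where pool A was far below B and C in both. The fit shares 1 error over glands, so the Tgm5 log2 change with its SE was 0.22 ± 0.87 in the meibomian gland too, where its pools read 11.9, 11.4 and 11.9 and 17.4, 12.5 and 11.9. Krt80 had a meibomian log2 change of -0.42 ± 0.58, with pools of 11.5, 10.3 and 10.7 and 7.03, 7.54 and 9.79 that did not overlap.

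Other genes of cornification that are no keratins or envelope proteins were counted for comparison, from a list of 95 genes of which 59 were measured and 53 tested. In placebo pools 42 were higher and 5 lower in the meibomian than in the lacrimal gland, and 40 higher and 4 lower than in the submandibular gland. The shares called higher were 79.2% and 75.5%, against 29.2% and 30.6% of all tested probes. The list was chosen with earlier results of these data known, so these shares are no independent evidence. All 10 tested proteases and inhibitors were higher in both comparisons. The largest differences from the lacrimal gland were those of Elovl4, which makes very long fatty acids for barrier lipids (8.41), the keratinocyte lectin Lgals7 (7.77), the surface protein Ly6d (7.31) and the secreted dermokine Dmkn (7.11). Basal adhesion genes stood apart from the rest of the list: 2 of 6 were higher in the meibomian than in the lacrimal gland, and against the submandibular gland 2 were lower and 0 higher.

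With testosterone 4 of these genes were higher and 10 lower in the lacrimal gland, 6 were higher and 4 lower in the submandibular gland, and 0 were called in the meibomian gland. The shares called, 26.4% (lacrimal) and 18.9% (submandibular), stand beside 28.1% and 13.8% of all tested probes, and beside 0.590% in the meibomian gland. The largest lacrimal changes were those of Alox12b, a lipoxygenase of the lipid envelope, which read 2.93, 3.33 and 2.82 and then 0.924, 0.771 and 0.495 (log2 change -1.85, adjusted p = 3.23e-06), and of Anxa8 (-1.66, adjusted p = 0.0446). Trp63, the master transcription factor of stratified epithelia and of myoepithelial and basal cells, read 1.13, 0.851 and 0.916 and 0.135, 0.378 and 0.305 (log2 change -1.39, adjusted p = 0.000173), in the pools where the 4 smooth muscle and myoepithelial genes fell. The hemidesmosome collagen Col17a1 rose (0.91, adjusted p = 5.68e-06), from a fit in which meibomian testosterone pool C held no value. In the submandibular gland the fatty acid-binding protein Fabp5 fell (-1.62, adjusted p = 8.87e-07), while Anxa2 (1.18, adjusted p = 3.17e-06), the claudin Cldn7 (0.74, adjusted p = 0.0111) and Anxa1 (0.65, adjusted p = 0.0164) rose. S100a11, a known binding partner of Anxa1, rose in the same gland.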

How the data were processed

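The authors deposited 1 value per probe and array, an intensity on a linear scale. The steps of background correction and scaling are not given in the sources used here, and the deposited scaling was kept because the array medians were close. The value -1 (37 to 118 probes per array) was taken to mark a missing value, and other negative values were set to 0. Values were changed to log2(value + 0.174), with the 10th percentile of the positive values as the offset. Probes were tested when they had at least 2 values in every group and rose above the 40th percentile of the array in 3 or more arrays. This kept 7463 of 10500 probes, as 146 lacked values and 2891 were dim. limma 3.58.1 in R 4.3.3 fitted group means to all 18 arrays together (12 residual degrees of freedom, eBayes with an intensity trend). Benjamini-Hochberg adjustment covered every tested probe, and the threshold was 0.05. The script was tested on simulated data.

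Gene names came from the platform annotation, and all 58 symbols were the same in RefSeq by gene identifier, 49 of 49 also by accession. The members, role classes and lists were chosen with earlier results of these data known. Pool values were printed for members called in a testosterone effect or in a difference of effects, and for up to 3 members per role class with the highest meibomian placebo mean. Pools of a group correlated at 0.904 to 0.953 (Spearman) in lacrimal and submandibular glands and at 0.984 to 0.992 in meibomian glands. Figures were drawn with matplotlib 3.10.9 in Python 3.11.15. The alternatives were the glands fitted alone, 2 other offsets, 2 other filters on dim probes, 2 quantile normalizations, array weights, eBayes without a trend, the pool letter as a block, -1 counted as 0, the brightest meibomian probes left out, and each array left out in turn.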

Additional observations from a re-analysis of the deposited data

Results flagged for a closer look

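The testosterone effects of 23 members differed between glands by an interaction term, and the log2 differences are given here in full. The share of all probes that differed in at least 1 comparison was not counted. Each pair of these 3 comparisons shares the arrays of 1 gland.

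For the meibomian minus the lacrimal gland the differences were -4.93 for Lce1l, -1.68 for Sprr2a1, -1.53 for Krt31, -1.48 for Krt8, -1.44 for Sfn, -0.97 for Krtap3-1, -0.81 for Krtap6-1 and -0.65 for S100a4. The 3 members with the higher effect in the meibomian gland were Sprr2f at 1.08, S100a6 at 1.06 and Krt23 at 0.62. The calls of Krt23 and S100a4 were each lost in 11 of 30 alternatives and that of Sprr2f in 1.

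For the meibomian minus the submandibular gland all 6 differences were negative: -2.17 for Sprr2a1, -2.17 for Sprr1b, -1.38 for Krt7, -1.11 for Krt19, -0.91 for S100a4 and -0.82 for Krtcap3. The calls of Krt19, Krtcap3, Sprr1b and S100a4 were lost in 13, 11, 9 and 1 of 30 alternatives. Sprr1b was -1.41 without submandibular placebo pool C.

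For the submandibular minus the lacrimal gland the effect was higher by 1.70 for Sprr1b, 1.53 for S100a6, 1.49 for S100a13, 0.97 for Krt18, 0.96 for Ppl, 0.90 for S100a11, 0.87 for Krtcap3, 0.78 for Krt17, 0.77 for S100a3, 0.74 for Krt23 and 0.66 for Krt27. It was lower for Lce1l at -4.71, Krt31 at -1.66, Krtap3-1 at -1.38, Lor at -1.11 and Sfn at -0.77. The calls of Sprr1b and S100a3 were each lost in 20 of 30 alternatives, that of Krt18 in 14, Krt27 in 13, Krt17 in 11 and Sfn in 2. Sprr1b was 0.94 without submandibular placebo pool C.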

How the results depend on the processing

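No called change of a member turned its direction in any of 12 alternatives or with any of 18 arrays left out. Of 19 called testosterone changes 16 kept their call throughout. The exceptions were Sprr2a1 in the meibomian gland and, with the submandibular arrays fitted alone, Sprr1b (adjusted p = 0.0919) and Sfn (0.0583). Of 33 called differences between glands 20 kept the call, and of 127 called placebo differences 114 did. With each array left out in turn, the counts of called members ran from 10 to 13 in the lacrimal, 0 to 5 in the meibomian and 8 to 10 in the submandibular gland. They ran from 9 to 15, 3 to 8 and 12 to 17 for the differences of effects (meibomian minus lacrimal, meibomian minus submandibular, submandibular minus lacrimal) and from 45 to 49, 49 to 50 and 25 to 32 for the placebo glands in the same order. The meibomian count was 0 without placebo pool A, testosterone pool A or testosterone pool B and 5 without testosterone pool C. The meibomian minus submandibular count was 3 without meibomian placebo A, B or C or testosterone B.

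Settings moved 3 of these counts beyond 1.5 times. The meibomian count of 1 became 2 with that gland fitted alone, 3 with the offset 4 times larger, 25 (8 higher and 17 lower) with array weights and 0 with the pool letter as a replicate block, where Sprr2a1 had an adjusted p of 0.0937. With array weights 26.7% of all tested probes were called in that gland, in place of 0.590%, so the members' count there rests on how the error is modelled. The count of 6 for meibomian minus submandibular became 10 with the larger offset, 13 with quantile normalization over all arrays, within glands and with array weights, and 3 with the replicate block. The submandibular count of 8 became 5 when probes near the meibomian maximum were left out, which removes S100a6, S100a11 and Sfn. Within a gland, the placebo and testosterone pools of 1 letter deviated together by correlations of only -0.10 to 0.13 over 9 pairs. The letters were therefore not taken to pair the treatments. Whether a letter pairs the glands was not tested, so comparisons between glands may share animals. With the larger offset the fall of Ppl in the lacrimal gland was -0.43 in place of -0.78. Signal over background is unknown, as no background values were used here, so no limit was set for dim members.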

Other observations

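The 3 members that were too dim to be tested were low in all 3 glands. Krt12, the type I keratin of the corneal epithelium, lay between 0.132 and 0.437 over all 18 arrays and between 0.141 and 0.277 in the meibomian pools. S100a5 lay between 0.0870 and 0.469, although S100a4 and S100a6 beside it on chromosome 3 were called in the lacrimal and submandibular glands. Lce1g lay between 0.0602 and 0.441. Its meibomian pools (0.0602 to 0.177) were below its lacrimal (0.214 to 0.441) and submandibular pools (0.242 to 0.355), opposite to Lce1b, Lce1f and Lce1l, and none of these values was tested.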
